A study of Mus musculus with 6 samples.

Results

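ATP-binding cassette (ABC) transporters were examined in primary mouse hepatocytes that received nuclear CREBH, a liver transcription factor of the CREB3 family. Members were the genes whose array annotation gave exactly 1 symbol of the form Abc, a subfamily letter from a to g and a number, and they numbered 48 of the 18820 genes measured. Hepatocytes from male wildtype C57BL/6J mice aged 8 to 10 weeks were kept in 60 mm dishes and transduced at a multiplicity of infection of 100. The control dishes received an adenovirus for green fluorescent protein (Ad-GFP) and the others an adenovirus for the nuclear form of CREBH (Ad-nuclear CREBH), so every dish carried a virus. RNA was taken after 24 h from 3 dishes per group, and each was read on its own array. Nothing in the labels ties the dishes to different mice, and p-values therefore measure only the spread between these dishes.

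ABC proteins bind and hydrolyse ATP at a conserved cassette, and most use it to move a substrate across a membrane. In the hepatocyte they pump bile salts, phospholipid, sterols and conjugated drugs across the canalicular membrane into bile, return conjugates to blood across the basolateral membrane, and load cholesterol onto apolipoprotein A-I. Others import fatty acids into peroxisomes or act at mitochondria and lysosomes, and the E and F subfamilies lack membrane domains and act on ribosomes and translation. Levels below are RMA values on the log2 scale, in which the probes of a gene are background corrected, normalized and combined. They compare a gene between dishes and not with another gene.

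The gene for CREBH itself, Creb3l3, rose by 2.10 on the log2 scale (SE 0.19, adjusted p = 9.0e-05), a value that does not separate the viral from the mouse transcript. The arrays numbered 1 stood somewhat apart, with mean correlations to the others of their group of 0.9857 for Ad-GFP and 0.991 for Ad-nuclear CREBH. Albumin was level at a mean of 13.28 and 13.27, close to the highest value of any gene, 13.56. Of 9 hepatocyte markers measured 0 rose, 6 did not pass and 3 fell, Fgb (-2.29), Cps1 (-1.21) and Ahsg (-0.75). Of 10 macrophage markers 1 rose and 3 fell, and their median log2 difference was 0.05. Their summed linear level ran from 3609 to 4482 with Ad-GFP and from 1308 to 2759 with Ad-nuclear CREBH. That sum was mostly Cd68 (linear means of 2868 and 1308) and Cd14 (914 and 109), so it does not stand for the markers as a set. The macrophage genes Adgre1 and Clec4f differed by 0.15 and 0.26 and did not pass the test. Their mean levels of 4.98 and 3.80 lay below the median of all genes, 5.24. The 3 macrophage markers that fell, Cd14 (-3.07), Cd68 (-1.13) and Lyz2 (-0.57), lay above it. Called genes numbered 0 of 7 for sinusoidal endothelium, 1 of 8 for stellate cells and 2 of 6 for cholangiocytes, where 37.4% of all genes were called. The 2 cholangiocyte calls were opposite, with Epcam at 1.74 and Krt19 at -1.06. Among uncalled stellate markers, Col1a1 read 5.25, 4.90 and 4.77 with Ad-GFP and 5.02, 7.30 and 7.51 with Ad-nuclear CREBH. Col1a2 was likewise higher on Ad-nuclear CREBH arrays 2 and 3 (5.76 and 6.02) than on array 1 (4.42). The part of these markers in the results below was not tested, and in bulk RNA fewer cells of a type cannot be told apart from less RNA per cell.

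Export pumps of the MRP and MDR type were mostly lower with nuclear CREBH, whereas the cholesterol exporters Abca1 and Abcg1, the peroxisomal transporter Abcd3 and the ribosome-associated Abcf3, Abcf1 and Abce1 were higher. At an adjusted p under 0.05 over all genes (limma, Benjamini-Hochberg), 10 of the 48 members rose against 19.2% of all genes, and 20 fell against 18.2%. The remaining 18 did not pass. Groups did not overlap in 34 members, 12 higher and 22 lower with Ad-nuclear CREBH, where 49.4% of all genes had groups without overlap. The median log2 difference was -0.105 over the members and 0.0386 over all genes, and with each array centred on its median these became 0.0368 and 0.181, so the sign of the family's median depended on the scaling. The median size of the difference, sign aside, was 0.653 for the members and 0.288 for all genes. Call rates differed by level. Among the 27 members above the median level of all genes 77.8% were called, where 58.5% of all such genes were, and among the other 21 members 42.9% were called, where 16.4% of all such genes were.

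**Figure D1:**
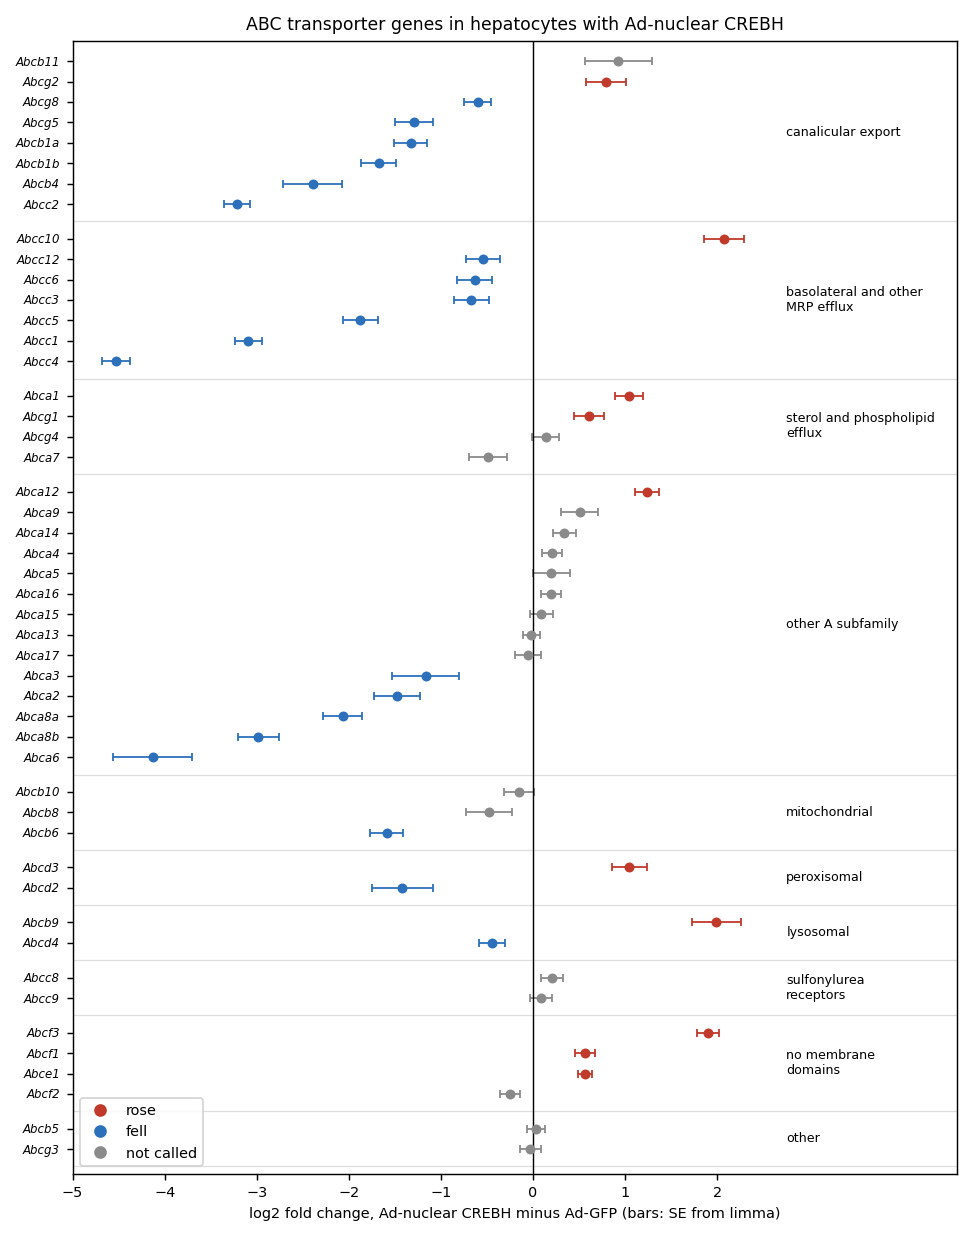
Log2 fold change of the 48 ABC genes (x axis, Ad-nuclear CREBH minus Ad-GFP, with the standard error from limma as bars), arranged by role on the y axis and coloured by call. The canalicular and MRP genes lie mostly to the left of 0, down to Abcc4 at -4.53, and Abcc10, Abcb9 and Abcf3 lie farthest to the right, near 2.

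Stricter criteria combine an unadjusted p under 0.001, a fold beyond 2 in either direction and, in 1 group or both, a mean above 300 on the linear scale. By these, 3 members rose (Abca1, Abcd3 and Abcf3) where 4.91% of all genes did, and 6 fell (Abcc1, Abcc2, Abcc4, Abcb1b, Abcb4 and Abca6) where 3.1% did. The risen count was 1 without Ad-GFP array 1, without Ad-nuclear CREBH array 2 or without Ad-nuclear CREBH array 3, and the folds of Abca1 and Abcd3 in the full data, 2.06 and 2.07, lay close to the limit of 2.

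**Figure D2:**
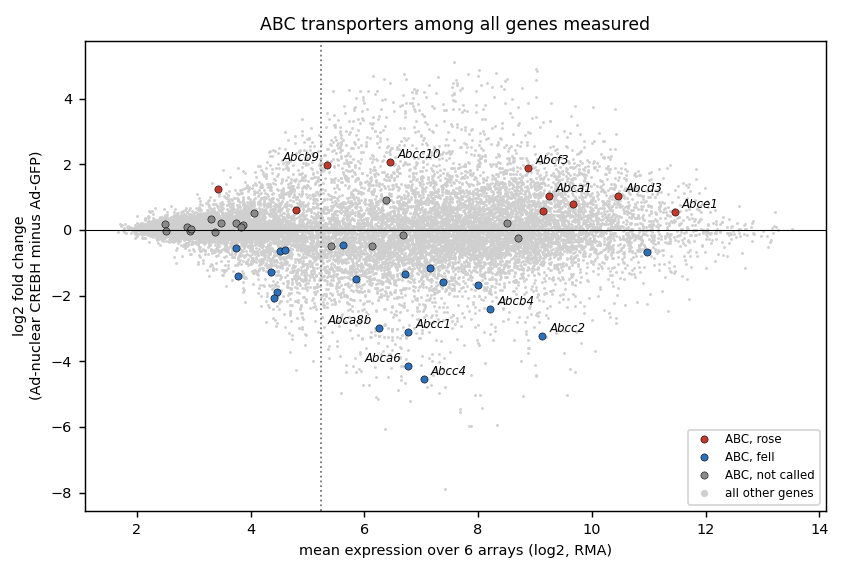
Mean expression over the 6 arrays (x axis, log2) against log2 fold change (y axis) for all 18820 genes in grey and the 48 ABC genes in colour by call, with the dotted line at the median level of 5.24. Abcc4, Abca6, Abcc2, Abcc1 and Abca8b lie lowest among the members, above the lowest gene of all at -7.895. Most of the uncalled members lie at low levels close to 0.

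Of the 8 canalicular exporters 6 fell, 1 rose and 1 did not pass, where 18.2% of all genes fell and 19.2% rose. Abcc2, the pump for bilirubin glucuronides and glutathione conjugates, read 10.55, 10.83 and 10.83 on the Ad-GFP arrays and 7.74, 7.42 and 7.39 on the Ad-nuclear CREBH arrays. The groups lay far apart, with means of 10.74 ± 0.16 and 7.52 ± 0.19 (SD, n = 3 each), and Abcc2 was 9.31-fold lower (log2 fold change -3.22, SE 0.14, adjusted p = 1.38e-05). Its upstream sequence is shown because it is the most strongly lowered canalicular gene; it covers the 100 bases before the RefSeq start at chr19:43782208-43782307 on the plus strand of GRCm38.p6, and TGACG, the core of a cAMP response element, was found on neither strand.
Abcc2: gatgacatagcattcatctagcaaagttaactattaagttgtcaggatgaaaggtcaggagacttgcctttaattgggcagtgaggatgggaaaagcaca

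Abcb4, which moves phosphatidylcholine into bile, read 8.59, 9.88 and 9.76 with Ad-GFP and 7.0, 6.87 and 7.17 with Ad-nuclear CREBH. It fell 5.26-fold (log2 fold change -2.39, SE 0.32, adjusted p = 0.000604), and even the lowest Ad-GFP dish stayed above every Ad-nuclear CREBH dish. The drug exporters Abcb1b and Abcb1a, mouse forms of P-glycoprotein, lie beside Abcb4 on chromosome 5 and fell with it. Abcb1b read 8.53, 9.04 and 8.96 against 6.89, 7.32 and 7.30, a 3.20-fold fall (adjusted p = 0.000243). Abcb1a read 7.09, 7.62 and 7.44 against 5.94, 6.02 and 6.20, a 2.51-fold fall (adjusted p = 0.000589). These paralogs are close in sequence, and probes shared between their transcripts could carry signal from one to the other.

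Abcg5 and Abcg8 form the heterodimer that secretes cholesterol and plant sterols into bile. Abcg5 read 4.66, 5.39 and 4.95 with Ad-GFP and 3.72, 3.88 and 3.52 with Ad-nuclear CREBH, and fell 2.45-fold (log2 fold change -1.30, SE 0.21, adjusted p = 0.00153). Abcg8 read 4.74, 5.02 and 4.98 against 4.41, 4.20 and 4.32, and fell 1.52-fold (log2 fold change -0.60, SE 0.14, adjusted p = 0.0117). Both lay below the median of all genes in nearly every dish, where RMA values understate a fold, and without Ad-nuclear CREBH array 2 Abcg8 had an adjusted p of 0.0536. The genes are read in opposite directions on chromosome 17, with 109 bases between an annotated start of each. That stretch is shown from the Abcg5 side, chr17:84683012-84683120 on the minus strand, because the 2 genes share it, and TGACG was found on neither strand.
Abcg5: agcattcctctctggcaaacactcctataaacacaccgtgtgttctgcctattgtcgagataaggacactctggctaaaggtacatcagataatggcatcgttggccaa

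Abcg2, an exporter of urate and drug conjugates, was the canalicular gene that rose. It read 8.75, 9.48 and 9.59 with Ad-GFP and 9.86, 10.15 and 10.20 with Ad-nuclear CREBH, a rise of 1.73-fold (log2 fold change 0.79, SE 0.22, adjusted p = 0.0226). The groups were separate by a small margin, and the adjusted p was 0.0786 and 0.0825 without Ad-nuclear CREBH arrays 2 and 3. Abcg2 has several annotated starts, and 2 of their promoters hold TGACG, one of them within the full palindrome TGACGTCA. The start with the palindrome lies downstream of the other on the same strand, and the array value does not tell which start was in use. Those matches are shown in capitals with neighbouring bases, at chr6:58584495-58584524 and chr6:58640498-58640527 on the plus strand.
Abcg2, the former start: ttgtggtggtggTGACGggacagttagtga
Abcg2, the latter start: gcggcgcgagcTGACGTCAcggcggtcggg

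Abcb11, the bile salt export pump, did not pass. It read 6.83, 5.56 and 5.37 with Ad-GFP and 7.14, 6.73 and 6.66 with Ad-nuclear CREBH, a log2 difference of 0.93 (SE 0.36, adjusted p = 0.0832). Ad-GFP array 1 lay within the range of the Ad-nuclear CREBH arrays and the other Ad-GFP dishes lay more than 1 log2 unit below it. Without that array the difference was 1.38 (adjusted p = 7e-04). It was 1.23 without both arrays numbered 1 (adjusted p = 3.87e-05), a setting added after seeing the data. Leaving out any 1 of the other arrays gave differences between 0.65 and 1.02, with adjusted p between 0.13 and 0.243.

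**Figure D3:**
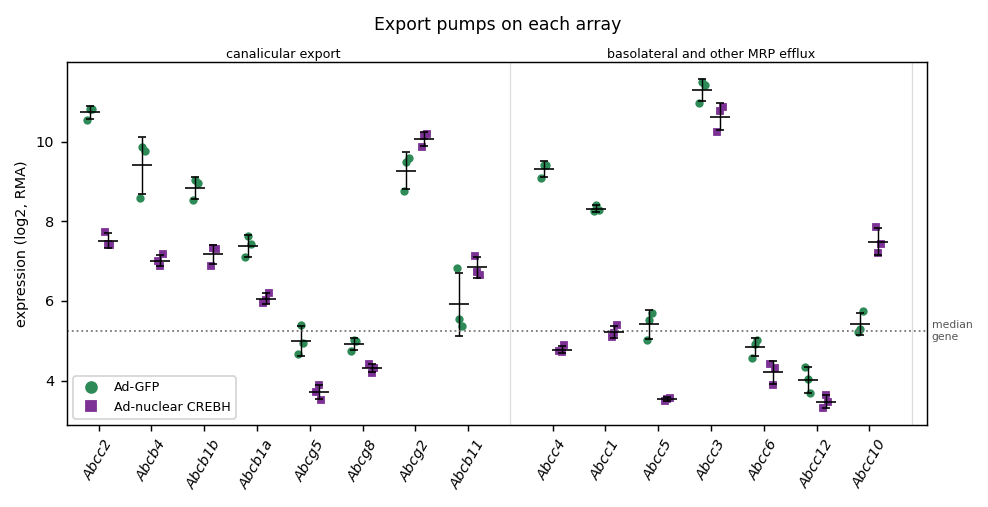
Expression on each array (y axis, log2, RMA) of the canalicular and the MRP exporters (x axis), with circles for the 3 Ad-GFP and squares for the 3 Ad-nuclear CREBH dishes, bars for mean and SD, and a dotted line at the median of all genes. The symbols of Abcc2, Abcc4 and Abcc1 are widely separated, while Ad-GFP array 1 of Abcb11 lies among the squares.

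All 7 measured genes of the other multidrug resistance proteins were called, 6 lower and 1 higher, against 37.4% of all genes. Abcc4 and Abcc1, which carry conjugates and other organic anions out across the basolateral or plasma membrane, had the clearest falls. Abcc4 read 9.08, 9.43 and 9.43 with Ad-GFP and 4.74, 4.72 and 4.88 with Ad-nuclear CREBH, and fell 23.1-fold (log2 fold change -4.53, SE 0.15, adjusted p = 6.39e-06), the largest change of any member. Abcc1 read 8.25, 8.42 and 8.29 against 5.10, 5.19 and 5.39, an 8.53-fold fall (log2 fold change -3.09, SE 0.14, adjusted p = 1.55e-05). With Ad-nuclear CREBH both genes lay close to or below the median of all genes. Abcc5, an exporter of cyclic nucleotides and other anions, read 5.01, 5.53 and 5.70 against 3.49, 3.54 and 3.57 and fell 3.67-fold (adjusted p = 0.000154).

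Abcc3, the basolateral exporter of bile acid and bilirubin glucuronides, showed a smaller difference. It read 10.98, 11.49 and 11.43 with Ad-GFP and 10.25, 10.76 and 10.87 with Ad-nuclear CREBH, a 1.59-fold fall (log2 fold change -0.67, SE 0.19, adjusted p = 0.0249). Without Ad-GFP array 2, Ad-GFP array 3 or Ad-nuclear CREBH array 1 its adjusted p was 0.0858, 0.0819 or 0.058. Abcc6, known for its role in preventing soft tissue calcification, fell by 0.63 (SE 0.19, adjusted p = 0.0326), and its adjusted p was between 0.0663 and 0.115 without array 2 or array 3 of either group. Abcc12 was at the edge of the threshold (log2 fold change -0.54, SE 0.18, adjusted p = 0.0486). Leaving out any array but Ad-GFP array 3 ended that call, with adjusted p between 0.0627 and 0.143.

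Abcc10, an exporter of lipophilic anions, went the other way. It read 5.23, 5.29 and 5.74 with Ad-GFP and 7.85, 7.20 and 7.42 with Ad-nuclear CREBH, a rise of 4.20-fold (log2 fold change 2.07, SE 0.22, adjusted p = 0.000184). This was the largest rise among the members, and the groups were more than 1 log2 unit apart.

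Of 4 genes for cellular sterol and phospholipid efflux, 2 rose and 2 did not pass, where 37.4% of all genes were called. Abca1, which starts high density lipoprotein formation by loading apolipoprotein A-I, read 8.39, 8.88 and 8.89 with Ad-GFP and 9.73, 9.74 and 9.81 with Ad-nuclear CREBH. Every Ad-nuclear CREBH dish lay above every Ad-GFP dish, and Abca1 rose 2.06-fold (log2 fold change 1.04, SE 0.15, adjusted p = 0.00101). Abcg1, which passes sterol to mature lipoproteins, read 4.75, 4.27 and 4.48 against 5.24, 5.06 and 5.02 and rose 1.52-fold (log2 fold change 0.61, SE 0.17, adjusted p = 0.0213). Its adjusted p was between 0.0567 and 0.0866 without Ad-GFP array 2 or 3 or Ad-nuclear CREBH array 1 or 2. Macrophages also use Abca1 and Abcg1. Among the macrophage markers Csf1r rose by 0.61 (adjusted p = 0.0254), while Cd14 (-3.07, adjusted p = 2.53e-05) and Cd68 (-1.13, adjusted p = 0.0215) were lower. The median over the 10 markers was 0.05, and their part in these rises was not tested.

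The relatives of these exporters gave no call. Abca7, a phospholipid exporter, read 5.46, 5.72 and 5.80 with Ad-GFP and 4.78, 5.44 and 5.30 with Ad-nuclear CREBH, a log2 difference of -0.49 (SE 0.21, adjusted p = 0.103). That difference was -0.39 without both arrays numbered 1 (adjusted p = 0.0342) and -0.42 without Ad-GFP array 3 (adjusted p = 0.257). Abcg4, a sterol exporter known from brain, read 4.03, 3.72 and 3.67 against 3.92, 3.83 and 4.08, low in both groups and overlapping (log2 difference 0.14, adjusted p = 0.52).

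Of the 14 other A subfamily genes 5 fell, 1 rose and 8 did not pass. The share called, 42.9%, was near the 37.4% of all genes. A cluster on chromosome 11 holds Abca8b, Abca8a, Abca9, Abca6 and Abca5 side by side, and its members moved unequally. Abca6 read 7.67, 9.40 and 9.44 with Ad-GFP and 4.78, 4.65 and 4.69 with Ad-nuclear CREBH, a 17.5-fold fall (log2 fold change -4.13, SE 0.43, adjusted p = 0.000177). Ad-GFP array 1 was well below the other control arrays and still nearly 3 log2 units above the treated ones, and without both arrays numbered 1 the log2 fold change was -4.75. Abca8b read 7.25, 8.07 and 7.93 against 4.67, 4.80 and 4.83, a 7.92-fold fall (adjusted p = 4.03e-05). Abca8a read 4.99, 5.75 and 5.59 against 3.53, 3.33 and 3.28, a 4.19-fold fall (adjusted p = 0.000158). Abca8a and Abca8b are close paralogs, so their probes may share signal.

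The other genes of that cluster gave different values. Abca5 read 7.94, 8.62 and 8.67 with Ad-GFP and 8.54, 8.59 and 8.69 with Ad-nuclear CREBH, overlapping groups at a well measured level (log2 difference 0.20, SE 0.20, adjusted p = 0.499). Abca9, which was dim, differed by 0.51 (SE 0.20, adjusted p = 0.0901). Its difference was 0.67 without Ad-GFP array 3 (adjusted p = 0.0445) and 0.62 without both arrays numbered 1 (adjusted p = 0.0425). With Ad-GFP array 2 left out it was 0.37 (adjusted p = 0.265).

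Abca2, a lipid transporter of endosomes and lysosomes, read 6.06, 6.97 and 6.77 with Ad-GFP and 4.89, 5.23 and 5.25 with Ad-nuclear CREBH and fell 2.79-fold (adjusted p = 0.00204). Abca3, which loads surfactant phospholipid in lung, read 6.93, 8.21 and 8.10 against 6.08, 6.80 and 6.85 and fell 2.25-fold (log2 fold change -1.17, SE 0.36, adjusted p = 0.0345). The Abca3 groups were separate by a narrow margin, and its call was lost without any 1 array other than Ad-GFP array 1, with adjusted p between 0.0571 and 0.113. Abca12, a lipid transporter of the skin barrier, read 3.03, 2.76 and 2.62 against 4.0, 4.01 and 4.11 and rose 2.36-fold (log2 fold change 1.24, SE 0.13, adjusted p = 0.000181). All 6 of its values lay below the median of all genes, so its rise is between low signals. The upstream sequence of Abca12 at chr1:71414911-71415020 on the minus strand is shown because it holds TGACG, in capitals.
Abca12: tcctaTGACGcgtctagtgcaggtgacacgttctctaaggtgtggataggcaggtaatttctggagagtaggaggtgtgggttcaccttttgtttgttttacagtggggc

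The remaining A subfamily genes, Abca4, Abca13, Abca14, Abca15, Abca16 and Abca17, were all below the median of all genes in both groups and differed by between -0.06 and 0.34. Abca14 came closest at 0.34 (SE 0.12, adjusted p = 0.0598). Its difference was 0.41 without Ad-GFP array 1 (adjusted p = 0.0343) and 0.26 without Ad-GFP array 3 (adjusted p = 0.199). Abca16 differed by 0.19 (adjusted p = 0.222). The difference was 0.36 without both arrays numbered 1 (adjusted p = 0.0269) and 0.10 after cyclic loess normalization (adjusted p = 0.534). Outside that subfamily, the sulfonylurea receptors Abcc8 and Abcc9, which are subunits of potassium channels, and the genes Abcb5 and Abcg3 were dim in the same way, with differences between -0.03 and 0.20 and 0 calls among the 4. Over the family, 18 members lay below the median of all genes in both groups.

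The peroxisomal pair split. Abcd3, which brings branched-chain and bile acid precursors into peroxisomes, read 9.52, 10.17 and 10.12 with Ad-GFP and 10.73, 11.10 and 11.13 with Ad-nuclear CREBH and rose 2.07-fold (log2 fold change 1.05, SE 0.19, adjusted p = 0.00306). Abcd2, an importer of very long-chain fatty acids, read 3.74, 4.90 and 4.82 against 2.63, 3.37 and 3.20 and fell 2.67-fold (log2 fold change -1.42, SE 0.33, adjusted p = 0.0097). The fall of Abcd2 was between values below the median of all genes, while Abcd3 was well above it on every array. Of the 3 genes that insert proteins into the peroxisomal membrane, Pex16 rose by 0.92 (adjusted p = 0.00107) and Pex19 by 0.62 (adjusted p = 0.0168), and Pex3 differed by 0.13 (adjusted p = 0.695).

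At mitochondria, Abcb6, linked to porphyrin transport, read 7.82, 8.39 and 8.30 with Ad-GFP and 6.57, 6.73 and 6.44 with Ad-nuclear CREBH and fell 3.01-fold (log2 fold change -1.59, SE 0.18, adjusted p = 0.000277). Abcb10, needed for heme synthesis in blood cell precursors, differed by -0.16 (SE 0.16, adjusted p = 0.512), and Abcb8, a subunit of a mitochondrial potassium channel, by -0.48 (SE 0.25, adjusted p = 0.188). Neither passed, and the groups overlapped in both. Abcb8 differed by -0.72 without Ad-GFP array 1 (adjusted p = 0.024) and by -0.32 without Ad-GFP array 2 (adjusted p = 0.448). Without both arrays numbered 1, Abcb8 and Abcb10 differed by -0.56 and -0.35 (adjusted p = 0.00919 and 0.0156). After cyclic loess normalization Abcb10 differed by -0.0006 (adjusted p = 0.998).

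At lysosomes, Abcb9, a peptide importer, read 4.61, 4.07 and 4.37 with Ad-GFP and 5.79, 6.58 and 6.66 with Ad-nuclear CREBH and rose 3.98-fold (log2 fold change 1.99, SE 0.26, adjusted p = 0.000559). It lay below the median of all genes in each control dish and above it in each treated dish. Abcd4, which takes part in cobalamin release, fell by 0.45 (SE 0.14, adjusted p = 0.0413), a difference that lost its call without any 1 array other than Ad-GFP array 1, with adjusted p between 0.0528 and 0.154, and also after quantile normalization (adjusted p = 0.187). Among ABC genes with other names, the peptide transporter subunits of antigen presentation, Tap1 and Tap2, differed in direction, with Tap1 higher by 0.53 (adjusted p = 0.0183) and Tap2 at -0.71 (adjusted p = 0.0255). Cftr, an ABC chloride channel, differed by 0.19 (adjusted p = 0.392).

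**Figure D4:**
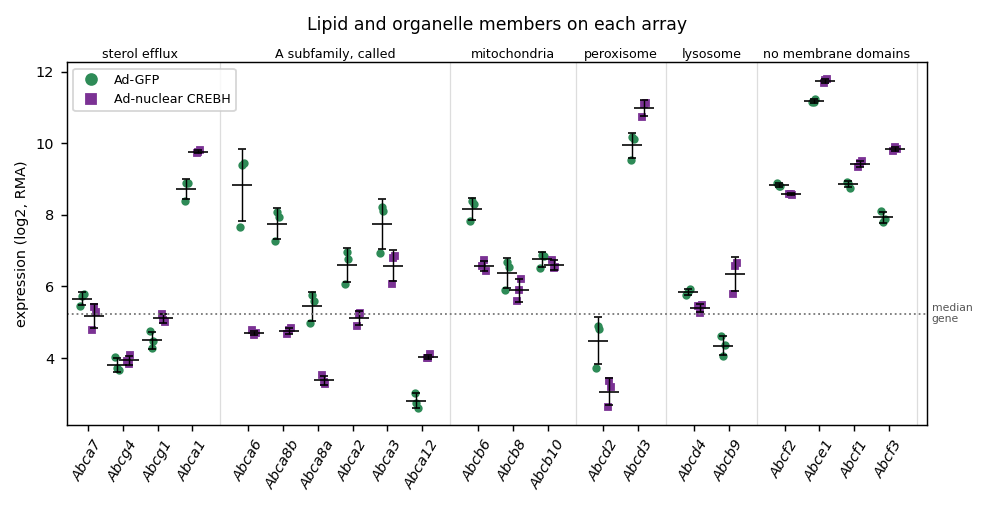
Expression on each array (y axis, log2, RMA) of the sterol efflux genes, the called A subfamily genes, and the mitochondrial, peroxisomal and lysosomal members and those without membrane domains (x axis), with circles for Ad-GFP and squares for Ad-nuclear CREBH, bars for mean and SD (n = 3), and a dotted line at the median of all genes. Abca6 and Abca8b lie far lower and Abcf3, Abcb9, Abca1 and Abcd3 higher with Ad-nuclear CREBH, and Ad-GFP array 1 of Abca6 and of Abcd2 lies below the other control arrays.

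Among the 4 members without membrane domains 3 rose, where 19.2% of all genes did. Abcf3, a cytosolic ATPase of the family that acts in translation, read 8.11, 7.80 and 7.90 with Ad-GFP and 9.78, 9.88 and 9.83 with Ad-nuclear CREBH and rose 3.74-fold (log2 fold change 1.90, SE 0.12, adjusted p = 2.46e-05). Abce1, which splits ribosomes for recycling, read 11.15, 11.14 and 11.23 against 11.67, 11.75 and 11.78, and its narrow groups gave a call at only 1.48-fold (log2 fold change 0.56, SE 0.07, adjusted p = 0.000583). A dimmer row of Abce1 on the array rose by 0.51 (SE 0.15, adjusted p = 0.0298). Abcf1, which binds an initiation factor, read 8.93, 8.89 and 8.75 against 9.32, 9.45 and 9.49 and rose 1.48-fold (adjusted p = 0.0045). Abcf2 had groups that did not overlap, 8.88, 8.79 and 8.81 against 8.59, 8.59 and 8.56, and a log2 difference of -0.25 (SE 0.11) that did not pass (adjusted p = 0.106). Without both arrays numbered 1 it did (difference -0.23, adjusted p = 0.0180), as it did after quantile normalization (difference -0.35, adjusted p = 0.0418). With each array centred on its median the difference was -0.11 (adjusted p = 0.499).

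Matches to TGACG upstream of these 3 risen genes are shown because each of them holds at least 1, in stretches of 30 bases. A further match of Abce1, on the other strand just past its start, is not printed. Capitals mark TGACG, its other-strand form CGTCA, or the palindrome TGACGTCA that holds both. The windows lie at chr8:79711741-79711770 for Abce1 (minus strand), chr16:20548540-20548569 for Abcf3 (plus strand), and chr17:35969909-35969938 and chr17:35969879-35969908 for Abcf1 (minus strand).
Abce1: tcattggcgtcgcggcgcaaTGACGTCAcc
Abcf3: tctgctttcttaCGTCAaccctgcgcatgc
Abcf1, the farther match: ggtcaTGACGcgctgcccactccagtcaag
Abcf1, the nearer match: taggTGACGtctctggccacacccccaaag

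CREBH belongs to a family that binds DNA at cAMP response elements and at elements known from the unfolded protein response, so promoters were searched on both strands for letters of these elements. RefSeq gave 45 promoters of 300 bases, 250 before and 50 after the start, for 38 of the 48 members. TGACG was found in 6 of 9 risen members (Abca12, Abcd3, Abce1, Abcf1, Abcf3 and Abcg2), in 0 of 14 fallen ones and in 1 of 15 that did not pass, Abcf2. Over all 18141 promoters 25.1% held it, and by gene the share was 37.6% of those that rose, 31.3% of those that fell and 24.1% of those not called. Abcd3's match lay in the window of a start that falls inside its longer transcript. The palindrome TGACGTCA, which contains TGACG on each strand, was in the promoters of Abce1 and Abcg2 and in 2.41% of all promoters. Its share by gene was 4.18% of those that rose, 2.76% of those that fell and 2.32% of those not called.

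The other elements were searched in the same way. CCACG, the end of an endoplasmic reticulum stress element, was found in 5 of 9 risen, 4 of 14 fallen and 7 of 15 uncalled members and in 39.6% of all promoters. Over all genes it was in 53.7% of those that rose, 47.5% of those that fell and 38.4% of those not called. CCAAT, the other end of that element, was in 2 risen, 7 fallen and 6 uncalled members and in 37.5% of all promoters, and by gene in 40.6%, 46.1% and 41.0%. TGACGTGG, which contains TGACG and overlaps CCACG on the other strand, was in 0 member promoters and in 0.783% of all. By gene it was in 2.01% of those that rose, 0.291% of those that fell and 0.763% of those not called. These matches are letters in a window and do not show binding. The members are few, neighbours such as Abcg5 and Abcg8 share sequence, and for 10 members, Abcc1, Abcc3 and Abca6 among them, no promoter was searched.

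Most genes on a list of factors known to control hepatic ABC transporters were called. Of 12 measured, 3 rose and 7 fell. All 12 lay above the median level, where 58.5% of all genes were called. Ahr, the dioxin receptor, read 9.37, 9.87 and 9.76 with Ad-GFP and 6.87, 6.79 and 6.75 with Ad-nuclear CREBH and fell 7.27-fold (adjusted p = 1.84e-05). Nr1h4, the bile acid receptor FXR, read 7.71, 8.71 and 8.72 against 5.85, 5.92 and 5.59 and fell 6.03-fold (adjusted p = 0.00019). The xenobiotic receptor Nr1i2 (PXR) fell by 1.87 on the log2 scale (adjusted p = 0.00125). The oxidative stress factor Nfe2l2, the bile acid synthesis regulators Nr5a2 and Nr0b2, and the sterol receptor Nr1h3 (LXR alpha) fell as well. Ppara, the fatty acid receptor, read 6.59, 6.39 and 7.08 against 9.60, 9.88 and 9.93 and rose 8.66-fold (adjusted p = 2.35e-05). Srebf1 and Rxra also rose, and the 2 genes without a call were Hnf4a (-0.37, adjusted p = 0.129) and Srebf2 (-0.32, adjusted p = 0.314).

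Of 7 measured genes listed as LXR targets beside Abca1 and Abcg1, 2 rose and 2 fell. Srebf1 and the receptor gene Nr1h3 itself were already counted among the regulators above. Of these 7, 6 lay above the median level, where 58.5% of all genes were called. Srebf1 rose by 1.41 (adjusted p = 0.00273) and Mylip, which degrades the low density lipoprotein receptor, by 1.01 (adjusted p = 0.00198). Nr1h3 was at -0.97 (adjusted p = 0.0187) and Myo5b at -0.37 (adjusted p = 0.0320). Scd1 and Lpcat3, which make and remodel membrane lipids, did not pass and differed by 0.11 (adjusted p = 0.734) and 0.18 (adjusted p = 0.299). The rises of Abca1 and Abcg1 were not shared by each gene of that list. The list held no ABC members, so Abcg5 and Abcg8, at -1.30 and -0.60, were not counted in it.

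Among genes for proteins that work beside the exporters, 9 of 15 rose and 3 fell, where 19.2% of all genes rose and 18.2% fell. Of the 15, 13 lay above the median level, where 58.5% of all genes were called. Slc10a1, which takes bile salts up from blood, read 7.03, 6.40 and 7.19 with Ad-GFP and 10.18, 10.36 and 10.40 with Ad-nuclear CREBH and rose 10.8-fold (adjusted p = 2.2e-05). The scaffold protein Pdzk1 rose by 2.99 (adjusted p = 2.38e-05) and the basolateral bile salt exporter subunit Slc51b by 2.59 (adjusted p = 2.41e-05). Slc51a, for the other subunit, was dim at means of 2.71 and 2.84 and did not pass (difference 0.13, adjusted p = 0.494). Ezr, for ezrin, which ties membrane proteins to actin, was the strongest fall, 8.65-fold (adjusted p = 1.84e-05). Rdx, for radixin, which anchors Abcc2 at the canaliculus, differed by -0.13 (adjusted p = 0.377). Atp8b1, the canalicular phospholipid flippase, which was picked out after its value was seen, rose by 1.09 (adjusted p = 0.00093). In the same dishes the canalicular exporters Abcc2 and Abcb4 were at -3.22 and -2.39.

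**Figure D5:**
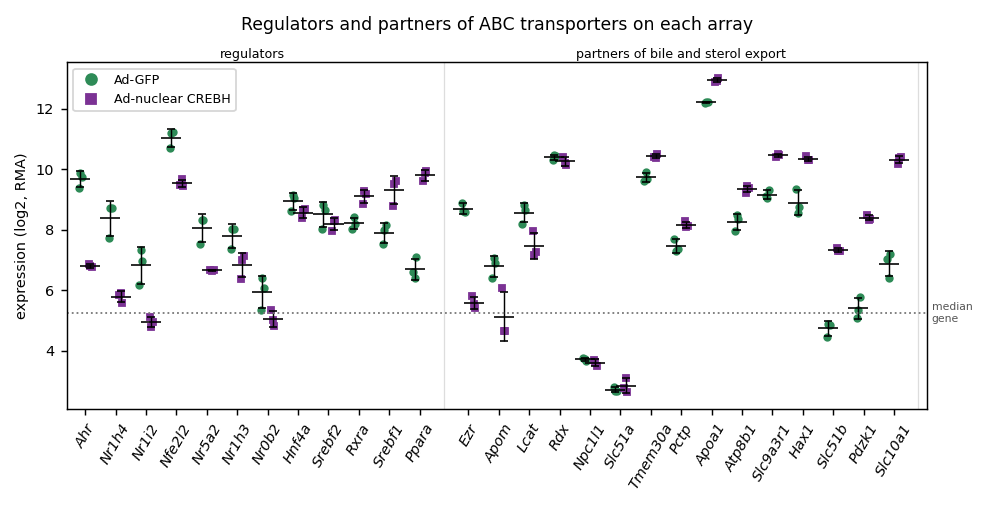
Expression on each array (y axis, log2, RMA) of 12 regulators of hepatic ABC genes and 15 partners of bile and sterol export (x axis), with circles for Ad-GFP and squares for Ad-nuclear CREBH, bars for mean and SD (n = 3), and a dotted line at the median of all genes. Ahr, Nr1h4 and Ezr lie lower and Ppara, Slc10a1, Pdzk1 and Slc51b higher with Ad-nuclear CREBH, with no overlap between groups.

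Of 16 alternative settings, 1 tested only genes above the median level. The direction of every called member held under each setting that tested it, and 22 of the 30 calls, 8 rises and 14 falls, kept their side of the threshold in each of those settings. The other 8 calls were those of Abcc12, Abcc6, Abcc3, Abcd4, Abca3, Abcg1, Abcg2 and Abcg8, with adjusted p from 0.0117 to 0.0486 in the full data. Without both arrays numbered 1, 29 of the 30 calls were kept and 7 further members passed. With a called fold of at least 2 stood 6 risen members, Abcc10, Abcb9, Abcf3, Abca12, Abcd3 and Abca1, and 15 fallen ones.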

How the data were processed

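Expression was measured in 6 dishes of primary mouse hepatocytes, 3 per group, on Affymetrix Mouse Gene 1.1 ST arrays with 100 ng of RNA each. The deposited values are log2 intensities that the authors obtained with RMA (the sources used here name no version), and they were not normalized again. Precision is limited by the number of arrays, and RMA gives no background flag, so folds of dim genes are understated. The table has 35556 rows, of which the 21218 annotated with 1 gene symbol were kept, and 1881 with several symbols and 12457 without any were set aside. Where a gene had several rows (1386 genes) its highest-mean row stood for it, which left 18820 genes. The 48 members came from 50 such rows, and 2 rows that pair Abca3 or Abcc9 with another symbol were left out.

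All genes entered 1 limma model (version 3.58.1 under R 4.3.3) of the difference Ad-nuclear CREBH minus Ad-GFP without covariates, moderated by eBayes with its trend option. Residual degrees of freedom were 4 and prior ones 3.97. P-values are two-sided and were adjusted by Benjamini-Hochberg over all genes. An exact permutation test of 3 against 3 arrays cannot go below p = 0.1 and was not used. The models were tested on simulated data. The members and lists were chosen with earlier results of these data known. Named genes were the canalicular and sterol exporters, members called with a fold of at least 2, the brightest members of each role, members whose call changed under an alternative, Creb3l3, and the largest changes and brightest uncalled genes of each pathway list. Some genes were named outside these rules, among them Atp8b1, Slc51a and the remaining regulators. Roles were assigned from general knowledge. Promoters were taken from RefSeq (GRCm38.p6). A search of protein sequences was planned and not made. Alternatives covered the variance prior, the moderated statistic, weights per array, a block for the replicate number, normalization between arrays, rows per gene, filters on level, and each array left out in turn. Leaving out both arrays numbered 1 was added after seeing the data. Figures were drawn with matplotlib 3.10.9.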

Additional observations from a re-analysis of the deposited data

How the results depend on the processing

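The number of risen members lay between 8 and 14 over the alternatives, with 10 in the fit reported. The number of fallen members lay between 15 and 23, with 20 in the fit reported, apart from 13 where only genes above the median level were tested, which removes 21 members. Leaving out each array in turn gave 8 to 12 risen and 15 to 20 fallen members. Under the stricter criteria 1 member rose with array weights, with quantile normalization, with cyclic loess and without both arrays numbered 1, and 1 to 3 rose with each array left out in turn, where 3 did in the fit reported. With no expression minimum 6 members rose and 13 fell by those criteria, and with a minimum in both groups 0 fell, since each of the 6 fallen members was under it with Ad-nuclear CREBH. Centring each array on its median turned the members' median to 0.0368 and made 62.8% of all calls rises, with 4814 risen and 2852 fallen genes.

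Over all genes, dim ones included, arrays with the same number deviated together only weakly. The correlations were 0.178, 0.0729 and 0.139 for numbers 1, 2 and 3, and not each correlated best with its own number. The labels do not say whether equal numbers mark pairs, and the fit reported did not treat them as pairs. In Abcc3 array 1 was the lowest in both groups, whereas in Abcc2 it was the lowest with Ad-GFP and the highest with Ad-nuclear CREBH. With the replicate number as a block 12 members rose and 17 fell, and 27 of the 30 calls were kept. Those of Abcc12, Abcc6 and Abcd4 were lost (adjusted p = 0.0689, 0.0538 and 0.0565), and Abcb11 and Abca14 passed (adjusted p = 0.0202 and 0.0463). The block took the SE of Abcc3 from 0.192 to 0.0713. Over all genes it gave 3715 rises and 3705 falls, against 3615 and 3427 in the fit reported.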
